A study of Drosophila melanogaster with 12 samples.

Results

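CG34040, CG2444, CG31955, CG6012, CG15534 and CG33282 are 6 little-characterised Drosophila melanogaster genes that were picked because their mRNA was higher in females without corpora allata, both when the females could lay eggs and when they were sterile. They were chosen from these arrays, so their rise after the knockout is described below and not tested. The 6 genes hold 7 of the 18952 probe sets of the array and are 6 of the 11982 genes that have a probe set of their own. RNA came from whole adult females, 25 pooled per array, with 3 arrays for each of 4 genotypes. Wildtype females carried neither transgene. CAKO females carried Aug21-Gal4 and UAS-GFP together with UAS-NIPP1, so that NIPP1, driven in the corpora allata, ablated them. OvoD1 females had intact corpora allata and the dominant female sterile mutation OvoD1, and CAKO;OvoD1 females had both. All were adults, aged 15 days by the labels and 14 days by the growth protocol. The sources differ on genetic background: the legend of the array data places CAKO and wildtype in wDAH and the OvoD1 pair in w1118/wDAH, whereas the design text gives wDah/w1118 for both controls. If the legend is right, sterility and background cannot be told apart in a comparison of sterile with fertile females. Single CAKO females differed in how many eggs they laid in the study, and a pool of 25 females averages over them.

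The corpora allata are small endocrine glands of insects that make juvenile hormone (JH), a sesquiterpenoid. JH acts on larval development and, in the adult female, on yolk production, egg maturation and fat body. OvoD1 blocks the germ line early, so that females with intact corpora allata make no eggs. Of the 6 genes, CG15534 encodes a protein of the acid sphingomyelinase family, which splits sphingomyelin into ceramide and phosphocholine. CG6012 belongs by sequence to the short-chain dehydrogenases, NAD(P)-dependent enzymes that act on steroids, retinoids and other small molecules. CG33282 resembles sugar transporters of the major facilitator family. No role is given here for CG34040, CG2444 and CG31955. In the RefSeq gene table of assembly Release 6 plus ISO1 MT, CG31955, CG6012 and CG33282 lie on chromosome arm 2L, CG34040 on 2R, CG15534 on 3R and CG2444 on X.

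Values are log2 expression, and the lowest value an array can take, the floor of the background adjustment, was 2.13. The share of probe sets at the floor was 35.8% to 38.3% per array, with medians of 2.86 to 2.92. Replicate arrays were close, with a median SD per probe set of 0.0513 in CAKO to 0.0773 in wildtype. The genotypes were checked on jhamt, the methyltransferase of JH synthesis, which was lower without corpora allata (log2 difference -1.53 in fertile and -2.34 in sterile females), and on ovo, which was lower in OvoD1 (-4.06 against wildtype). Mean jhamt was 4.65 in wildtype, 3.13 in CAKO, 6.65 in OvoD1 and 4.30 in CAKO;OvoD1. The larger fall in sterile females thus started from a higher level and ended above that of CAKO. Levels of different genes are not compared below, because probe sets differ in their response.

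CG34040 was measured above the floor on every array and was far lower in wildtype than elsewhere. It read 4.6, 5.36 and 4.07 in wildtype, 11.57, 10.89 and 11.40 in CAKO, 10.62, 10.30 and 9.94 in OvoD1, and 12.49, 12.50 and 12.72 in CAKO;OvoD1. Every wildtype array lay at least 4.58 below every other array, and the 3 CAKO arrays lay above the 3 OvoD1 arrays. A second probe set of the gene, of a type that can match more than 1 transcript, gave 5.70, 4.97 and 2.80 in wildtype, 10.58, 9.95 and 10.37 in CAKO, 9.66, 9.45 and 9.04 in OvoD1, and 11.67, 11.61 and 11.76 in CAKO;OvoD1. Both probe sets put the genotypes in the same order, wildtype, OvoD1, CAKO and CAKO;OvoD1.

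CG2444 read 2.36, 2.74 and 2.27 in wildtype, so its lowest wildtype array was 0.13 above the floor. It read 5.53, 5.64 and 5.71 in CAKO and 5.80, 5.51 and 5.95 in OvoD1, and these arrays overlapped. In CAKO;OvoD1 it read 7.08, 6.71 and 7.09, above every array of the other genotypes. CG31955 read 3.03, 3.45 and 3.64 in wildtype, 7.0, 6.84 and 6.96 in CAKO, 6.53, 6.19 and 5.87 in OvoD1, and 7.65, 7.62 and 7.71 in CAKO;OvoD1. Its CAKO arrays all lay above its OvoD1 arrays, by 0.31 at the nearest pair.

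CG6012, the short-chain dehydrogenase, had wildtype values of 2.95, 2.78 and 2.85. In CAKO it read 6.31, 5.91 and 6.20, in OvoD1 4.63, 4.75 and 3.88, and in CAKO;OvoD1 8.25, 8.0 and 8.05. It had the widest step between the intermediate genotypes, 1.16 between the nearest CAKO and OvoD1 arrays. The other genes with lower OvoD1 than CAKO arrays, CG34040 and CG31955, had gaps of 0.27 and 0.31 there.

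CG15534, the acid sphingomyelinase relative, read 4.13, 4.91 and 5.02 in wildtype, 7.84, 7.96 and 7.73 in CAKO, 8.08, 8.14 and 8.59 in OvoD1, and 10.44, 9.80 and 9.96 in CAKO;OvoD1. CG33282, the sugar transporter relative, read 2.40, 3.09 and 3.79 in wildtype, 5.06, 5.03 and 4.82 in CAKO, 5.42, 5.69 and 5.15 in OvoD1, and 7.01, 7.54 and 6.98 in CAKO;OvoD1. In both genes the OvoD1 arrays lay above the CAKO arrays, by 0.13 and 0.09 at the nearest pair. The wildtype arrays of CG33282 were the most scattered of its genotypes, with an SD of 0.70 against 0.13 in CAKO. OvoD1 replicate 3 was the lowest OvoD1 array for CG34040, CG31955, CG6012 and CG33282 and the highest for CG2444 and CG15534.

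**Figure D1:**
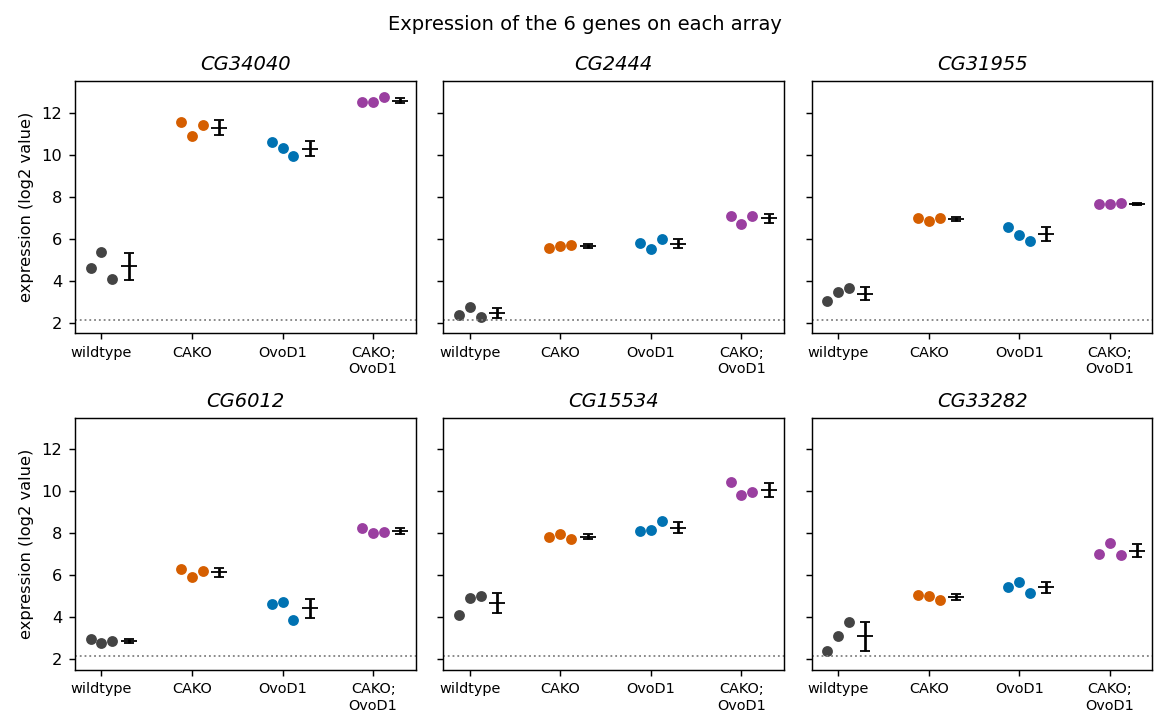
Log2 expression (y axis) of each gene on the 12 arrays, by genotype; points are arrays, bars the mean ± SD of 3, and the dotted line is the floor at 2.13. Wildtype is lowest and CAKO;OvoD1 highest in every panel, and CAKO and OvoD1 lie between them.

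The 6 genes shared 1 order at both ends. On every one of them the 3 wildtype arrays were lowest and the 3 CAKO;OvoD1 arrays highest, with no overlap with CAKO or OvoD1. The gap from wildtype to the nearest other array ran from 0.93 (CG6012) to 4.58 (CG34040), and the gap below CAKO;OvoD1 from 0.63 (CG31955) to 1.69 (CG6012). The choice of the genes fixes that CAKO exceeds wildtype and CAKO;OvoD1 exceeds OvoD1. It does not fix where OvoD1 lies against wildtype, or CAKO;OvoD1 against CAKO.

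The knockout difference in fertile females, CAKO against wildtype, was largest for CG34040, at 6.61 on the log2 scale (SE 0.32). It was 3.56 for CG31955 (SE 0.19, 11.8-fold), 3.28 for CG6012 (SE 0.21), 3.17 for CG2444 (SE 0.16, 9.01-fold), 3.16 for CG15534 (SE 0.26, 8.91-fold) and 1.87 for CG33282 (SE 0.32, 3.67-fold). Ordered by rise among the 9968 genes tested, CG34040 was number 1, CG31955 number 5, CG6012 number 10, CG2444 number 11, CG15534 number 12 and CG33282 number 46. All 6 passed the call used throughout, which asks for a 1.5-fold change and an adjusted p below 0.05, as did 4.01% of the genes tested in this direction. The count is what they were chosen for, and nothing is read from it.

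In sterile females, CAKO;OvoD1 against OvoD1, the order of the 6 genes was another one. CG6012 had the largest difference, 3.68 (SE 0.21), followed by CG34040 at 2.28 (SE 0.32), CG15534 at 1.80 (SE 0.26, 3.47-fold), CG33282 at 1.76 (SE 0.32, 3.38-fold), CG31955 at 1.46 (SE 0.19, 2.76-fold) and CG2444 at 1.21 (SE 0.16, 2.31-fold). By rise among all genes they stood at number 3 for CG6012, 13 for CG34040, 21 for CG15534, 23 for CG33282, 40 for CG31955 and 54 for CG2444. Over all genes tested 2.37% were called higher here and 97 genes (0.973%) in both knockout comparisons. The 6 are among them by choice, and nothing is read from that. With the methods' t-test and Benjamini-Hochberg adjustment 2 of the 6 were called in sterile females.

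Sterility went with higher levels of all 6 genes. The average of the sterile genotypes minus the average of the fertile ones bears on this with equal numbers of arrays on each side. Its error is independent of both knockout differences only if the spread is equal in all genotypes, as the model assumes. SDs in wildtype and CAKO were 0.70 and 0.13 for CG33282 and 0.49 and 0.11 for CG15534, but 0.08 and 0.21 for CG6012. The adjusted p-values from the model are thus not free of the choice of the genes. Genes with a small spread between replicates can also be chosen more easily, and the model uses that same spread. This comparison was itself chosen after the data had been seen, so the differences are given with their SE and without a test. CG34040 was 10.9-fold higher in sterile females (log2 difference 3.45, SE 0.23). CG15534 was 7.50-fold higher (2.91, SE 0.18), CG2444 4.98-fold (2.32, SE 0.12), CG33282 4.81-fold (2.27, SE 0.23), CG31955 3.42-fold (1.77, SE 0.13) and CG6012 3.38-fold (1.76, SE 0.15). Here 25.9% of the genes tested were called higher and 27.7% lower, so a call is common, and CG6012 stood only at number 485 by rise and CG34040 at number 21. In whole bodies fewer cells of a type and less RNA per cell cannot be told apart, which bears on every comparison of sterile with fertile females.

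Among females with intact corpora allata, OvoD1 against wildtype, each of the 6 genes was higher. This comparison uses arrays through which the genes were chosen, so the differences are given with their SE and without a test. Over all genes tested 25.2% were called higher and 28.6% lower. The differences were 5.61 for CG34040 (SE 0.32, 48.8-fold), 3.59 for CG15534 (SE 0.26, 12-fold), 3.30 for CG2444 (SE 0.16, 9.85-fold), 2.82 for CG31955 (SE 0.19, 7.07-fold), 2.33 for CG33282 (SE 0.32, 5.01-fold) and 1.56 for CG6012 (SE 0.21, 2.94-fold). Among females without corpora allata, CAKO;OvoD1 against CAKO, the 6 were again higher, and these arrays too had a part in the choice, so no test is given. Over all genes tested 25.7% were called higher and 26.6% lower. The differences there were 2.23 for CG15534, 2.21 for CG33282, 1.96 for CG6012, 1.33 for CG2444, 1.28 for CG34040 and 0.73 for CG31955, with the same SE as above. The second probe set of CG34040 gave 1.38 (SE 0.61).

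The size of the sterility differences depends on how the arrays are scaled. Setting the 20 measured muscle and photoreceptor genes level across arrays moved the averaged sterility difference of every gene by -0.83, and setting the median of the probe sets kept level moved it by 0.37. All 6 genes were still called higher in the averaged comparison under both, with values from 0.93 (CG6012) to 2.61 (CG34040) under the first. In CAKO;OvoD1 against CAKO the first scaling left CG34040 at 0.42 and CG2444 at 0.47, under 1.5-fold, and turned CG31955 to -0.14. With it 9.45% of the genes tested were called higher in the averaged comparison. The knockout differences moved by -0.19 in fertile and by -0.26 in sterile females.

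**Figure D2:**
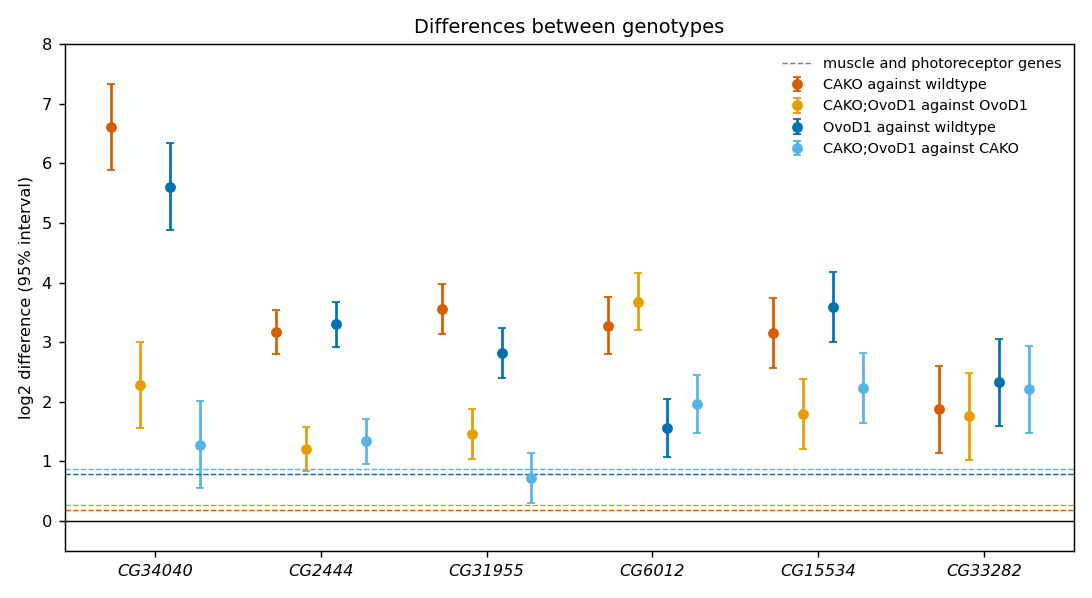
Log2 differences (y axis) of the 6 genes in the 4 comparisons, with 95% intervals from the model over 12 arrays; the dashed lines mark the mean difference of the 20 muscle and photoreceptor genes in the comparison of the same colour. Every point lies above 0, and for CG31955 the CAKO;OvoD1 against CAKO difference (0.73) lies below its dashed line.

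In females with both the knockout and OvoD1, 4 of the genes lay below the sum of the separate log2 differences by 1.36 or more. This is given as a description, since it contains the knockout differences. For CG34040 the combined difference, CAKO;OvoD1 against wildtype, was 7.89 and the sum 12.22, 4.33 more (SE 0.45). For CG31955 they were 4.28 and 6.38, for CG2444 4.51 and 6.47, and for CG15534 5.38 and 6.74, so that the combined difference minus the sum was -2.10 (SE 0.26), -1.97 (SE 0.23) and -1.36 (SE 0.36). CG33282 and CG6012 lay nearer to their sums on this scale, which does not show that the effects were additive. Their combined differences were 4.08 and 5.24 against sums of 4.20 and 4.84, which is -0.12 (SE 0.45) and 0.40 (SE 0.30). Wildtype values near the floor can make each difference against wildtype too small, most for CG2444.

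CG6012 stood higher with the knockout alone than with OvoD1 alone, and the other 5 genes differed less between these genotypes. CAKO minus OvoD1, a comparison added after the data had been seen, was 1.72 for CG6012 (SE 0.21), 1.00 for CG34040 (SE 0.32) and 0.74 for CG31955 (SE 0.19). It was -0.13 for CG2444 (SE 0.16), -0.43 for CG15534 (SE 0.26) and -0.45 for CG33282 (SE 0.32), values that do not show that the levels were alike. The choice of the genes favours high CAKO and low OvoD1 arrays, so no test is given. Over all genes tested 26.9% were called higher and 24.1% lower. Without OvoD1 replicate 3 the first 3 differences were 1.45, 0.83 and 0.57, and with the median of the probe sets kept set level they were 1.33, 0.61 and 0.35. Setting the muscle and photoreceptor genes level moved each difference by 0.60 and turned those of CG2444, CG15534 and CG33282 to 0.47, 0.17 and 0.15. The second probe set of CG34040 gave 0.92 (SE 0.61).

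The other 91 genes called higher in both knockout comparisons are the nearest comparison group, since they passed the same calls. The 6 genes were among the strongest risers, at numbers 1 to 46 in fertile and 3 to 54 in sterile females. The 91 were not matched to them on the size of the rise, so nothing is read from differences between the medians. Of the 91, 86 (94.5%, against 25.9% of all genes) were called higher in sterile than in fertile females on average. Their median log2 difference was 1.62, against 2.29 for the 6 genes and 0.00 over all genes. In OvoD1 against wildtype 85 of the 91 (93.4%, against 25.2% of all genes) were called higher and 1 lower, with a median of 1.75 against 3.06 for the 6 genes. In CAKO;OvoD1 against CAKO 87 (95.6%, against 25.7%) were called higher, with medians of 1.45 and 1.65. Most of the 91 were thus called higher in sterile females, as the 6 genes were. The 91 were not recounted with the muscle and photoreceptor genes set level, which moved the averaged difference by -0.83. In CAKO against OvoD1 10 of the 91 (11%, against 26.9% of all genes) were called higher and 42 (46.2%, against 24.1%) lower, with a median of -0.53 against 0.30 for the 6 genes. These counts have no test, because both groups were chosen by their knockout differences.

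Tissue markers moved between the genotypes alongside the 6 genes, and their part in the results was not tested. The log2 of the summed level of 12 eggshell genes of the follicle cells was 16.7 to 17.4 in wildtype, 14.3 to 16.1 in CAKO, 8.31 to 9.13 in OvoD1 and 6.83 to 7.34 in CAKO;OvoD1, with Cp7Fc at the floor in the sterile genotypes. The 9 germ line genes summed to 15.1 to 15.2, 14.9 to 15.0, 9.92 to 10.1 and 9.98 to 10.1 in the same order, with vas at the floor in both sterile genotypes and bcd in OvoD1. The 7 fat body genes summed to 16 to 16.1 in wildtype and 15.9 to 16 in CAKO, and to 16.8 in each OvoD1 array and 16.4 to 16.6 in CAKO;OvoD1, with Fbp1 and Fbp2 at the floor everywhere. Within that list Lsp2 was called higher and Lsd-1 lower in CAKO against wildtype, and AkhR and Lsd-1 lower in CAKO;OvoD1 against OvoD1. The 10 midgut genes summed to 17.1 to 17.2 in both fertile genotypes and to 17.6 to 17.7 in both sterile ones, while Mal-A1 was called higher and Jon25Bi, Jon25Bii and epsilonTry lower in CAKO against wildtype. Of the marker sums, those of muscle put the genotypes in an order of wildtype (15.6 on each array), CAKO (15.8 to 15.9), OvoD1 (16 to 16.1) and CAKO;OvoD1 (16.3 to 16.5), and the 8 photoreceptor genes in one of CAKO (15.0 to 15.1), wildtype (15.1 to 15.2), OvoD1 (15.4 to 15.5) and CAKO;OvoD1 (15.5 to 15.6).

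Most genes next to the 6 on the chromosome were not called after the knockout, which is true of most genes. The 3 nearest protein-coding genes on each side, 36 in all, held 33 with a probe set of their own, and 30 were tested. In fertile females 4 of the 30 (13.3%, against 4.01% of all genes) were called higher and 0 lower, while by the same model 2.43% of all genes were called lower. They were CG4377 (log2 difference 1.36, SE 0.10, adjusted p = 5.07e-05) and CG4363 (0.88, SE 0.11, adjusted p = 9.74e-04), which lie beside CG34040; CG15408 (1.30, SE 0.12, adjusted p = 1.68e-04), a sugar transporter-like gene near CG33282; and CG15533 (1.5, SE 0.22, adjusted p = 0.00214), an acid sphingomyelinase relative beside CG15534. In sterile females 1 of the 30 (3.33%, against 2.37% of all genes), CG15533, was called higher. CG31809, CG31810, lectin-24A and Shaw were called lower there, where 2.3% of all genes were. In OvoD1 against wildtype 16 of the 30 (53.3%, against 25.2% of all genes) were called higher and 6 lower, where 28.6% of all genes were. PhKgamma overlaps CG2444 in the RefSeq table and is the only neighbour that overlaps any of the 6. It was not called in either knockout comparison.

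CG15533 and CG15534, adjacent members of 1 enzyme family, had much the same direction of change and different proportions. CG15533 read 3.83, 4.16 and 4.29 in wildtype, 5.18, 6.03 and 5.56 in CAKO, 8.07, 8.21 and 7.70 in OvoD1, and 8.90, 8.98 and 8.87 in CAKO;OvoD1. Its CAKO minus OvoD1 difference was -2.40 (SE 0.22), where that of CG15534 was -0.43; the difference between these was not tested. It was higher in OvoD1 than in wildtype by 3.90 (SE 0.22, adjusted p = 2.59e-07). Its rise in sterile females, 0.92 (SE 0.22, adjusted p = 0.0293), was not called when OvoD1 replicate 1 (adjusted p = 0.0653), OvoD1 replicate 3 (0.0941) or any 1 CAKO;OvoD1 array (0.0687 to 0.0762) was left out. The third measured member of the family, CG32052, gave 0.36 (adjusted p = 0.206) in fertile and 0.02 (adjusted p = 1) in sterile females.

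CG6012 and CG31809, neighbours and both short-chain dehydrogenases, had different patterns. CG31809 read 2.23, 2.41 and 2.41 in wildtype, 2.41, 2.41 and 2.26 in CAKO, 6.14, 6.14 and 6.23 in OvoD1, and 2.24, 2.42 and 2.41 in CAKO;OvoD1. It was near the floor in every genotype other than OvoD1, so that its differences from OvoD1 are only lower limits in size. They were 3.82 in OvoD1 against wildtype (adjusted p = 3.74e-10) and -3.81 in CAKO;OvoD1 against OvoD1 (SE 0.07, adjusted p = 1.74e-08). CG31810, which lies between CG13284 and CG31809 and is of the same family, read 8.72, 9.08 and 9.11 in wildtype, 8.36, 8.39 and 8.12 in CAKO, 10.53, 10.66 and 11.22 in OvoD1, and 9.89, 9.87 and 10.28 in CAKO;OvoD1. The fall of CG31810 in sterile females (-0.79, SE 0.20, adjusted p = 0.0347) was not called without OvoD1 replicate 2 (adjusted p = 0.0593) or 3 (0.0768), CAKO replicate 1 (0.0549) or 2 (0.0535), or CAKO;OvoD1 replicate 1 (0.0941) or 2 (0.0963). The related genes could share probes, and cross-hybridisation was not tested.

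**Figure D3:**
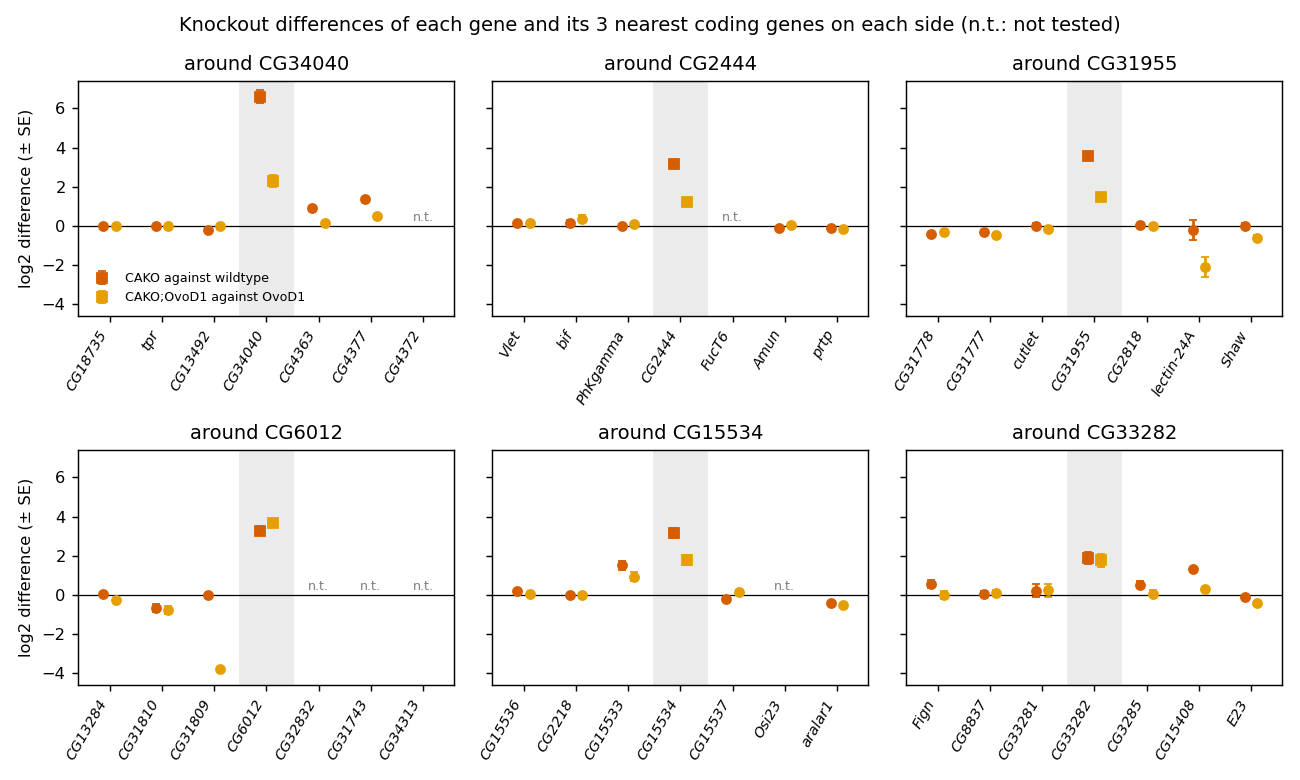
Log2 knockout differences (y axis, ± SE) in fertile and sterile females of each of the 6 genes (squares, shaded) and the 3 nearest protein-coding genes on each side in chromosome order (circles); n.t. marks genes that were not tested. Most neighbours lie near 0, and CG31809 beside CG6012 lies at -3.81 in sterile females.

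Around the other genes the neighbours gave smaller or less secure values. CG4363 and CG4377 had high levels in every genotype, 13.16 to 15.07 and 11.12 to 13.86 over the 12 arrays. In sterile females their knockout differences were 0.16 (adjusted p = 0.409) and 0.52 (adjusted p = 0.0108), neither of which reached 1.5-fold. Beside CG31955, lectin-24A, a C-type lectin, fell by 2.10 in sterile females (SE 0.51, adjusted p = 0.0318), from 3.95, 3.47 and 5.89 in OvoD1 to 2.18, 2.18 and 2.66 in CAKO;OvoD1. That call was lost without any 1 CAKO array (adjusted p = 0.0503 to 0.0523) or any 1 CAKO;OvoD1 array (0.0606 to 0.0819). Shaw, a potassium channel gene, changed by -0.61 there (SE 0.13, adjusted p = 0.0162), which fell short of 1.5-fold without OvoD1 replicate 1 (-0.46) or CAKO;OvoD1 replicate 3 (-0.56). CG33281, beside CG33282 and also sugar transporter-like, differed by 0.22 (adjusted p = 0.932) and 0.23 (adjusted p = 0.726) after the knockout, and by 1.21 in OvoD1 against wildtype (adjusted p = 0.0107). That last difference missed the threshold with the methods' t-test after adjustment (adjusted p = 0.0984) and in the fit of only the 2 genotypes (adjusted p = 0.0696). With the muscle and photoreceptor genes set level it was 0.41. The other probe set of CG33281 gave 2.32 there (SE 0.41).

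In the families of CG33282, CG6012 and CG15534 a few other members were called after the knockout and the medians stayed near 0. Among 23 other sugar transporter-like genes tested, 4 (17.4%, against 4.01% of all genes) were called higher and 1 lower in fertile females, with a median log2 difference of 0.05. In sterile females 3 (13%, against 2.37%) were called higher and 0 lower, with a median of 0.15. Over all genes 2.43% were called lower in fertile and 2.3% in sterile females. CG1208 was called higher in both, by 2.36 (adjusted p = 5.35e-05) and 1.71 (adjusted p = 5.95e-04), and CG6484 was higher by 1.61 in fertile females (adjusted p = 2.15e-05). CG1208 read 8.24, 7.90 and 7.57 in wildtype and 10.49, 10.11 and 10.20 in CAKO, 9.49, 9.76 and 9.72 in OvoD1 and 11.43, 11.21 and 11.48 in CAKO;OvoD1. Glut1, a glucose transporter, was called lower in fertile females through a probe set at -0.60 (adjusted p = 0.00916) while its brightest one gave 0.38 (adjusted p = 0.124), and was called higher in sterile females (0.75, adjusted p = 0.0106; 0.57 without OvoD1 replicate 1).

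Among 31 other short-chain dehydrogenases, 5 (16.1%, against 4.01% of all genes) were called higher and 2 lower in fertile females (median 0.03), and 3 (9.68%, against 2.37%) higher and 2 lower in sterile females (median 0.05). CG3699 rose by 2.19 (adjusted p = 1.31e-05) and 0.96 (adjusted p = 0.0017), and Rdh1, a retinol dehydrogenase, by 1.12 (adjusted p = 0.0105) and 1.16 (adjusted p = 0.0119). Neither call of Rdh1 held with the methods' t-test after adjustment (adjusted p = 0.105 and 0.0718). The fertile one was also lost in the fit of only the 2 genotypes (adjusted p = 0.0651). CG2070 and CG30495 lost their fertile calls with both as well. Their adjusted p was 0.0939 and 0.091 with the methods' t-test, and 0.0589 and 0.0533 in the fit of 2 genotypes. Of 17 other genes of sphingolipid metabolism, 1 (5.88%) was called higher in each knockout comparison, against 4.01% and 2.37% of all genes. It was CG15533, the neighbour of CG15534 named above, in both, and nothing is read from 1 gene. No other gene of the list was called in either, and the medians were -0.05 and -0.00. In OvoD1 against wildtype 16 of the 23 sugar transporter-like genes (69.6%) and 21 of the 31 dehydrogenases (67.7%) were called higher, with medians of 1.21 and 1.02, beside 25.2% of all genes. Of the 17 sphingolipid genes 5 (29.4%) were called higher, a share near that of all genes, and 4 lower, where 28.6% of all genes were. Of 11 genes of JH synthesis and response, jhamt, Kr-h1 and br were called lower and JhI-26 higher in fertile females, and jhamt alone was called, lower, in sterile females. Over all genes 2.43% were called lower and 4.01% higher in fertile females, and 2.3% lower in sterile females. Kr-h1, a zinc-finger transcription factor that responds to JH, differed by -1.77 (adjusted p = 0.00106) and -0.10 (adjusted p = 0.863). Its fertile call was lost with the methods' t-test after adjustment (adjusted p = 0.0609). The br call came from 1 probe set (-1.12, adjusted p = 0.0108), as its brightest set gave -0.32, and JhI-26 (0.62, adjusted p = 0.00716) fell below 1.5-fold without wildtype replicate 1 (0.56) or CAKO replicate 1 (0.55).

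**Figure D4:**
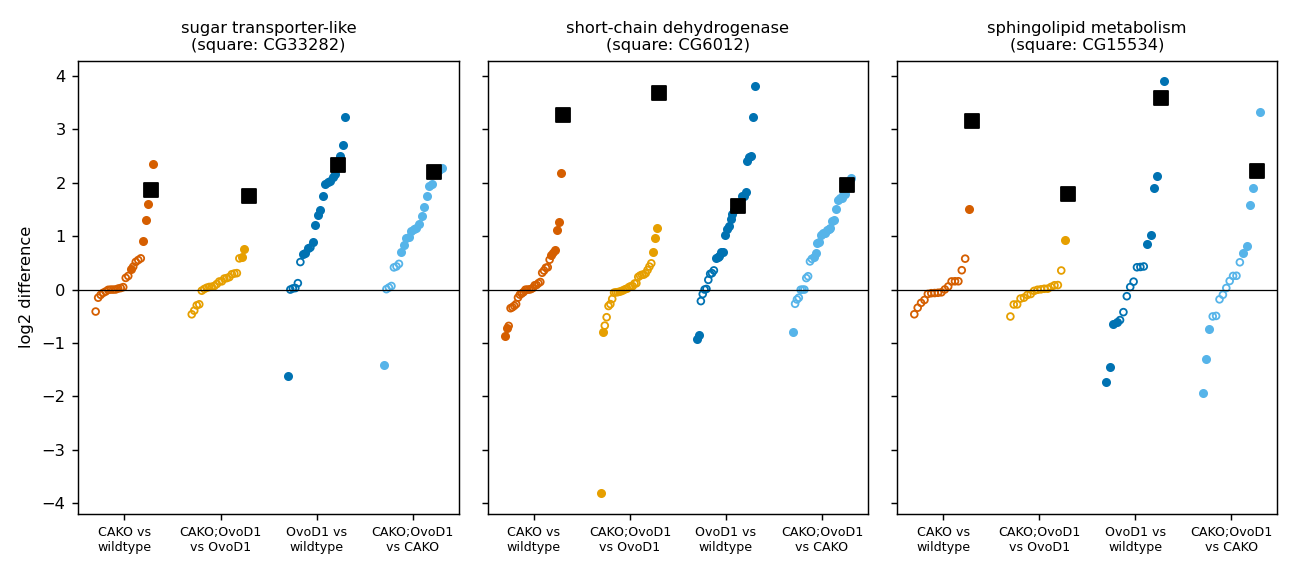
Log2 differences (y axis) of the genes of each family in the 4 comparisons, sorted within a comparison; filled circles were called through any of their probe sets, open circles were not, and the black square is the member among the 6 genes, not tested in the knockout comparisons. CG6012 (3.28 and 3.68) and CG15534 (3.16 and 1.80) lie above the rest of their families after the knockout, and CG33282 (1.87) lies below CG1208 in fertile females. The squares were chosen for this rise, so nothing is read from their place.

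For each of the 6 genes the closest profiles were sought among the other 9967 genes. Likeness was measured as the root mean square difference over the 12 arrays between log2 values centred on each gene's own mean, and genes picked by it share the arrays and so get no test here. CG2444 was closest to CG12998 (0.28) and CG6283 (0.30), where its own SD over the arrays was 1.75. CG31955 was closest to CG12998 (0.40) and CG2444 (0.41; own SD 1.71), and CG15534 to CG2444 (0.44) and Cyp309a1, a cytochrome P450 gene (0.44; own SD 2.04). The pair CG2444 and CG31955 was the nearest of all pairs of the 6. CG33282 was closest to Fst, which is induced on recovery from cold (0.39), and to Ugt37A2, a UDP-glycosyltransferase gene (0.41; own SD 1.56).

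CG6012 was closest to Try29F, a trypsin-family protease gene (0.42), and CG18302, of the acid lipase family (0.61; own SD 2.05). Try29F had means of 7.24 ± 0.46 in wildtype, 10.37 ± 0.19 in CAKO, 9.24 ± 0.18 in OvoD1 and 12.12 ± 0.22 in CAKO;OvoD1 (SD, n = 3), with CAKO above OvoD1 as in CG6012. The closest genes to CG34040 were Obp99b, an odorant-binding protein gene (0.81), and Cyp309a1 (1.24), against an own SD of 3.17. Obp99b had means of 4.16 ± 0.65, 9.07 ± 0.71, 8.4 ± 0.73 and 11.64 ± 0.24 in the same order. The differences between pairs of the 6 ran from 0.41 to 1.86, the latter between CG34040 and CG33282.

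**Figure D5:**
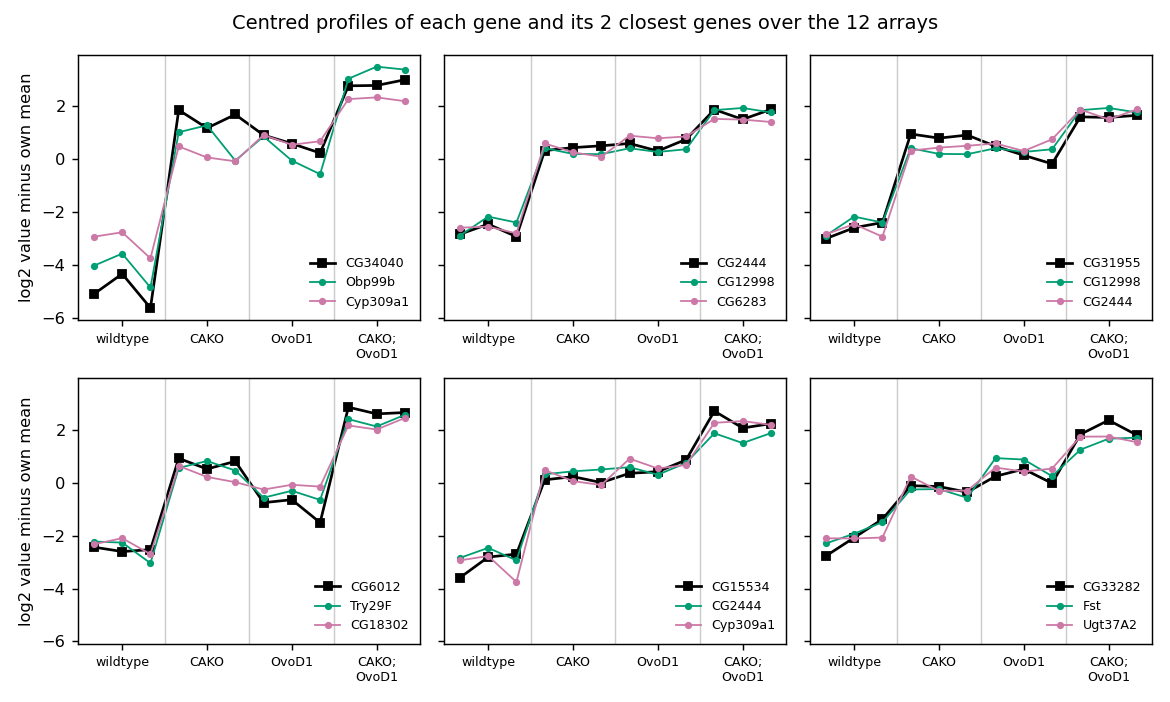
Log2 values minus each gene's own mean (y axis) on the 12 arrays in genotype order, for each of the 6 genes (black squares) and the 2 genes with the closest profiles (coloured circles). The lines nearly coincide for CG2444 and CG12998 (0.28) and are furthest apart for CG34040 and Cyp309a1 (1.24).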

How the data were processed

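RNA of 25 pooled whole females was hybridised per array on Affymetrix Drosophila 2.0 arrays, 3 per genotype, described as independent biological replicates. The authors adjusted background and normalized with GCRMA and deposited 1 log2 value per probe set and array; the GCRMA version is not given in the sources used here. The annotation gave 1 gene for 13647 of 18952 probe sets, several genes for 402 and none for 4903, and 13544 could be found in the RefSeq table by identifier. Leaving out 5081 probe sets whose mean was in the lowest quartile (25%) of every genotype kept 13871, or 9968 genes. R 4.3.3 with limma 3.58.1 fitted 4 groups (8 residual degrees of freedom, eBayes with trend, two-sided). Benjamini-Hochberg adjustment ran over the 13871 probe sets, and a call needed a 1.5-fold change with an adjusted p below 0.05. A gene was called if any probe set was called and none opposite, and is represented by its brightest probe set on average. The fit was tested on simulated data. The planned p-values of the 6 genes in OvoD1 against wildtype and CAKO;OvoD1 against CAKO are not printed, because the arrays compared had a part in choosing the genes. For the same reason those of the averaged sterility comparison are not printed.

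The 6 genes, the gene lists and the comparisons were chosen with earlier results of these data known. Genes were named by rule: the 6, the 2 closest profiles of each, the 3 nearest coding genes on each side, up to 4 called genes per family, jhamt and ovo. Some further family members are named where a call was lost in an alternative or the knockout effect differed between sterile and fertile females. Neighbouring genes come from the RefSeq table and coordinates are not used here. The averaged sterility comparison, CAKO against OvoD1, centring on kept probe sets and the alternatives for neighbours and families were added after seeing the data. The other alternatives were the methods' t-test, fits of 2 genotypes, other filters and fold thresholds, centring on medians or on muscle and photoreceptor genes, eBayes without trend, array weights, a replicate block, the other probe set and leaving out each array. An exact permutation of 3 against 3 arrays cannot give a two-sided p below 0.1, and the number of arrays limits precision.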

Additional observations from a re-analysis of the deposited data

Results flagged for a closer look

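The sterile minus fertile difference of the knockout effect came from the limma model over all probe sets kept. It was judged by the fold and adjusted p thresholds used throughout. By both thresholds, the knockout effect differed between sterile and fertile females for 11 of the neighbours and family members. It was smaller or turned downwards in sterile females for CG31809 (-3.82, SE 0.10, adjusted p = 1.75e-07), CG3699 (-1.22, adjusted p = 0.00577), CG6484 (-1.03, adjusted p = 0.00526), CG15408 (-1.02, adjusted p = 0.011), CG3301 (-0.99, adjusted p = 0.0374), CG4377 (-0.84, adjusted p = 0.0118), JhI-26 (-0.76, adjusted p = 0.0328), CG4363 (-0.73, adjusted p = 0.0335) and CG15406 (-0.60, adjusted p = 0.0302). Of these, CG31809 is a short-chain dehydrogenase next to CG6012 which lay near the floor in every genotype other than OvoD1, so that its value rests on levels near the floor. Among the 11, the difference was positive for Kr-h1 (1.67, adjusted p = 0.0209) and for CG40485, a short-chain dehydrogenase (0.98, adjusted p = 0.0222). Both were lower without corpora allata in fertile females. JhI-21 (0.31, adjusted p = 4.71e-04) and lace (-0.32, adjusted p = 0.0313) passed the adjusted p threshold and fell short of the fold threshold. The share of all genes passing both thresholds for this difference is not given, so nothing is read from the count. The same difference was not tested for the 6 genes, whose knockout effects chose them, and genotypes with 3 arrays were not searched for outlying arrays.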

How the results depend on the processing

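The counts of calls among the 6 genes given here describe how the calls moved with the processing. No test of the genes is read from them, because the arrays compared had a part in choosing the genes. All 6 genes were called higher in OvoD1 against wildtype and the averaged sterility comparison under every alternative run for them, and in these and the next 3 comparisons when any 1 array was left out (6 to 6). With the methods' t-test after adjustment, CAKO against wildtype gave 5 calls and CAKO;OvoD1 against OvoD1 gave 2, and in CAKO;OvoD1 against CAKO 3 were called with muscle and photoreceptor centring and 5 at a 2-fold threshold; the other alternatives gave 6. The count of 3 in CAKO against OvoD1 became 1 at a 2-fold threshold and 1 with centring on kept probe sets, and ran from 1 to 3 with an array left out (1 without OvoD1 replicate 3). Centring on muscle and photoreceptor genes reversed CG31955 in CAKO;OvoD1 against CAKO (-0.14), CG2444 (0.47), CG15534 (0.17) and CG33282 (0.15) in CAKO against OvoD1, aralar1 in OvoD1 against wildtype (-0.16) and CG4363 in CAKO;OvoD1 against CAKO (-0.19). Without OvoD1 replicate 3 the sterile knockout difference of CG6012 was 3.41, and the other probe set of CG34040 gave 5.81 in fertile females.

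Over all genes, 400 were called higher and 242 lower in fertile and 236 and 229 in sterile females. The counts were 176, 119, 79 and 96 at 2-fold, 814, 751, 677 and 622 with no fold threshold, 212, 83, 77 and 74 with the methods' t-test after adjustment, 326, 140, 171 and 145 with 2 genotypes a fit, and 282, 563, 125 and 871 with muscle and photoreceptor centring. The averaged comparison called 2579 higher and 2764 lower, but 942 and 6769 with that centring and 3513 and 2042 with centring on kept probe sets. Same-numbered arrays did not all deviate together in either knockout comparison (correlations of -0.159 to 0.149), which neither shows nor excludes a pairing by number. In CAKO;OvoD1 against CAKO every array matched its own number best, at correlations of only 0.0103 to 0.0215. With the replicate block 386 and 214 genes were called in fertile and 216 and 208 in sterile females, and all 6 genes in each.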
